A study of Mus musculus with 24 samples.

Results

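The genes described here encode the pore-forming and auxiliary subunits of voltage-gated sodium channels (Scn), voltage-gated calcium channels (Cacn), hyperpolarization-activated channels (Hcn) and potassium channels (Kcn) in mouse brain microvessels after stroke. They were chosen by symbol among the protein-coding genes of the expression table, leaving out Kcnj8 and Kcnj10, and had a mean above 5 normalized counts over all libraries. This gave 105 members of 17270 genes, and 9 further channel genes that matched by symbol did not exceed that mean. Just outside the limit were Cacna1s with a mean of 4.92 and Kcnu1 with 4.42, and just inside were Scn7a with 5.63 and Cacna2d4 with 5.88. Male C57BL/6J mice aged 10 to 12 weeks underwent transient middle cerebral artery occlusion (tMCAO) for 60 min, in which a filament blocks the artery and is then withdrawn, or a sham operation, in which the filament was inserted but not left in place. Microvessel fragments were isolated from the ipsilateral and the contralateral hemisphere at 24 h or 7 days after stroke onset. The 8 groups, sham or tMCAO, ipsilateral or contralateral, 24 h or 7 days, held 3 libraries each, and each library pooled hemispheres of 3 animals. All groups were of the same strain, and the labels name no genotype or drug for any of them. By the study's methods, surgery was under isoflurane, and buprenorphine was injected before it and at intervals early afterwards. The 24 h libraries were taken within that dosing period and the 7-day libraries after it. Care after surgery included warming, saline and hand feeding.

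Voltage-gated sodium channels carry the rising phase of the action potential, and voltage-gated potassium (Kv) channels repolarize the membrane. Voltage-gated calcium channels couple depolarization to transmitter release in nerve terminals and to contraction in vascular smooth muscle. In brain vessels, inward rectifier and calcium-activated potassium channels are known for their part in setting arterial tone and blood flow, whereas many other members of these families are best known from neurons and their axons.

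The summed normalized counts of all genes lay between 15924780 and 18787932 per library with a median of 16953257, and these totals do not show sequencing depth because the deposited values had already been scaled. Endothelial markers summed to 324035 to 501990 and neuron markers to 2679 to 12068 in the ipsilateral libraries, so the vessel preparations held transcripts of neurons as well as of vessel cells. No marker of the endothelial, mural, neuron, astrocyte or oligodendrocyte lists was at 0 in an ipsilateral library. The neuron list (12 markers) summed to 8994 to 9069 in sham ipsilateral and 3722 to 4865 in tMCAO ipsilateral libraries at 24 h, and to 7468 to 12068 and 2679 to 3691 at 7 days. Of these markers, 8 of 12 were called lower at 24 h, with a median log2 fold change of -1.22, and 11 of 12 at 7 days, with a median of -2.78. The exception at 7 days was Stmn2, at 0.08. In bulk samples of this kind, fewer cells of a type and less RNA per cell cannot be told apart, and the part of the neuron content in the results below was not tested. The library tMCAO contralateral 7 days replicate 1 stood apart with a neuron marker sum of 23325, against 8789 and 10225 in the other libraries of its group, and 69 of the 105 channel genes had their highest value of all libraries there.

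In the 12 sham libraries, abundant channel genes per length of exon included Kcna5, a Kv channel of vascular smooth muscle, with 332 ± 143 normalized counts per kb (SD, n = 12 libraries). Lower in this order were Hcn2 with 233 ± 54.5, Kcne4 with 197 ± 43.2, Scn4b with 154 ± 24.5, Kcnk3 with 149 ± 17.8, Cacng7 with 146 ± 24.4 and Kcnj2 with 141 ± 36.8. The levels per kb of neighbours among these genes overlapped over the sham libraries. Kcnj2, which encodes the Kir2.1 inward rectifier of capillary endothelium, ranged from 101 to 235 counts per kb, and Kcnmb1, the smooth muscle beta subunit of the BK channel, from 97.1 to 163. By contrast, neuronal pore subunits were low per kb: Scn2a had 8.75 and Scn1a 5.41 normalized counts per kb.

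In ipsilateral microvessels, more channel genes were called lower than higher after tMCAO against sham at both times, and 96 of the 105 had a negative log2 fold change at each. At 24 h, 37 members (35.2%) were called lower, at an adjusted p under 0.05 in limma and a change of more than 1.5-fold, whereas 8.23% of the 15982 genes tested were. At the same time 2 members (Kcne3 and Kcnj15) were called higher, where 10.0% of all genes tested were. At 7 days, 61 members (58.1%) were called lower against 9.95% of all genes tested, and 1 member (Kcna5) was called higher against 3.27%. The median log2 fold change of the 105 members was -0.83 at 24 h and -1.47 at 7 days, beside medians of -0.02 and 0.02 over all genes tested. In 66 members at 24 h and in 69 at 7 days all 3 tMCAO libraries lay below all 3 sham libraries, an arrangement found in 24.1% and 16.6% of all genes tested. Of the members, 28 were called lower at both times, 9 at 24 h and not at 7 days, 33 at 7 days and not at 24 h, and 32 at neither time. Thus 75.7% of the genes lower at 24 h were also called lower at 7 days, and 45.9% of those lower at 7 days had been called at 24 h. The number called lower at 24 h depended on single libraries. It was 19 without sham ipsilateral 24 h replicate 1, 22 without replicate 2 and 22 without replicate 3 of that group. Without tMCAO ipsilateral 24 h replicate 2 it was 21. Over all genes tested the number called lower fell too, from 1316 to 833, 945, 967 and 842 in these fits. At 7 days the number of members called lower stayed between 51 and 62 whichever library was left out. Of all genes tested, 1131 to 1570 were called lower in those fits, where 1591 were with all libraries. Of the 39 calls at 24 h in either direction, 15 remained in all 6 fits that each left out a library, and of the 62 at 7 days, 48 did. Among the genes named below, the 24 h calls of Kcnc1, Kcnmb4 and Scn8a remained in 0 of these 6 fits, those of Cacnb3, Kcne3, Kcng2 and Kcnj16 in 1, that of Kcna2 in 2, and those of Cacna1i, Cacnb4, Cacng2, Kcnb2, Kcnj12, Scn1a and Scn2a in 3. The 7-day call of Kcne2 remained in 1 of 6, that of Hcn2 in 3, those of Cacna2d2 and Kcnj16 in 4, and those of Cacng4, Kcnh4 and Kcnj13 in 5.

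**Figure D1:**
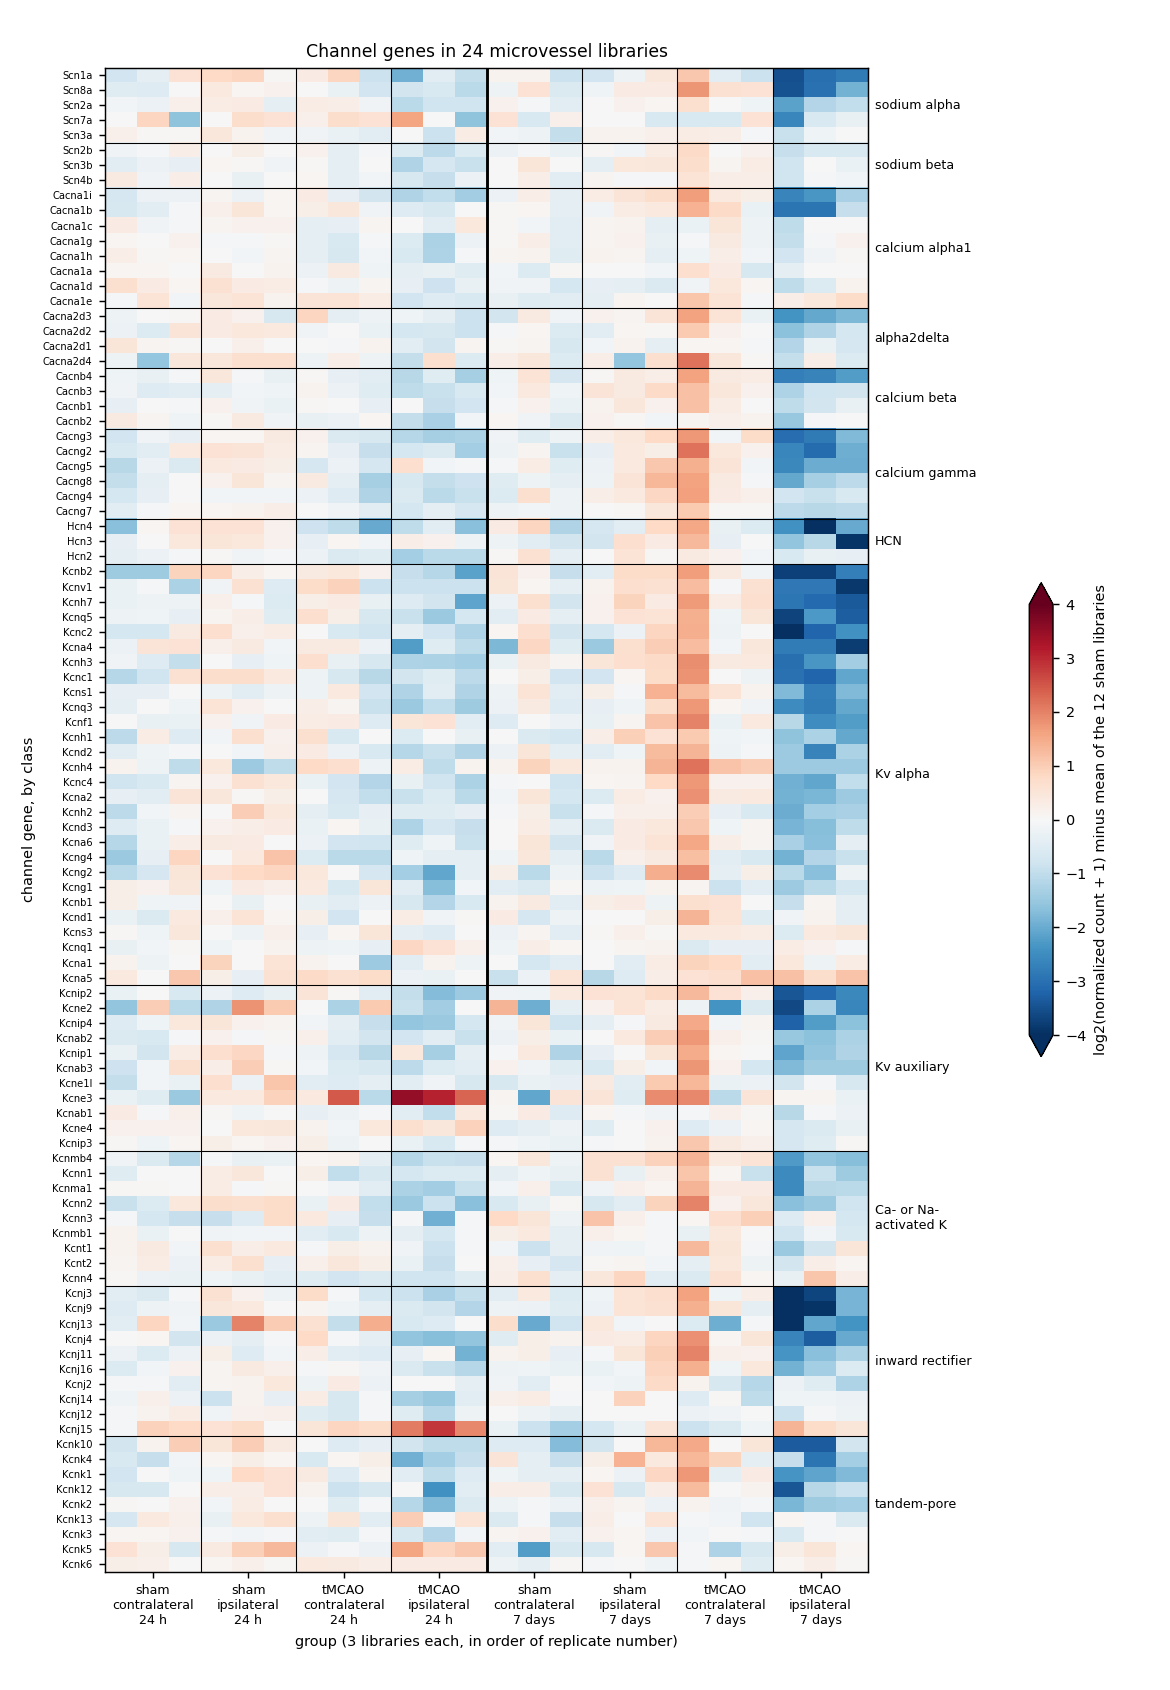
Heat map of the channel genes (rows, grouped by class, without the few not reported singly) in the 24 libraries (columns, 3 per group), as log2(normalized count + 1) minus the mean of the 12 sham libraries. Blue is lower and red higher than sham, with the colour scale ending at -4 and 4. The tMCAO ipsilateral libraries of 7 days are blue for most rows, and the first tMCAO contralateral library of 7 days is red for most.

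Few members rose. Kcne3 encodes a small beta subunit that modifies Kv channels and is known from epithelia and leukocytes. Its normalized counts were 10, 10 and 15 in sham ipsilateral and 94, 70 and 41 in tMCAO ipsilateral libraries at 24 h, so all tMCAO values exceeded all sham values. The log2 fold change of Kcne3 was 2.4 ± 0.83 (SE, adjusted p = 0.034), or 5.27-fold on the scale of the count plus 1, which understates changes of low genes. The call of Kcne3 remained in 1 of 6 fits that each left out a library, namely the one without tMCAO ipsilateral 24 h replicate 3, with adjusted p from 0.035 to 0.11 over the 6. At 7 days Kcne3 was at 11, 5 and 30 in sham and 8, 8 and 6 in tMCAO ipsilateral libraries, and the groups overlapped. Markers of neutrophils and monocytes (7 genes) summed to 334 to 1165 in sham and 3228 to 5973 in tMCAO ipsilateral libraries at 24 h, and all 7 were called higher. Whether they have a part in the values of Kcne3 was not tested.

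Kcnj15, which encodes the Kir4.2 inward rectifier, was at 26, 29 and 17 in sham and 73, 126 and 67 in tMCAO ipsilateral libraries at 24 h. It rose by 1.82 ± 0.37 on the log2 scale (adjusted p = 0.0013), a 3.53-fold increase, and kept the call in all 6 fits without a library. At 7 days the counts of Kcnj15 were 10, 14 and 25 in sham and 45, 29 and 24 in tMCAO libraries, which overlapped by 1 library, with a log2 fold change of 1.0 ± 0.37 (adjusted p = 0.074). Kcna5 encodes Kv1.5, a delayed rectifier of arterial smooth muscle. At 24 h its counts overlapped, with 1020, 686 and 1335 in sham and 732, 729 and 863 in tMCAO ipsilateral libraries. At 7 days Kcna5 was at 404, 605 and 1041 in sham and 1943, 1427 and 1926 in tMCAO libraries, all above sham. Kcna5 thus rose at 7 days by 1.46 ± 0.34 on the log2 scale (adjusted p = 0.0051), or 2.76-fold, and the call remained in all 6 fits without a library. The tMCAO contralateral libraries of 7 days held 1296, 1395 and 1977 counts of Kcna5, close to the ipsilateral ones and above all of the 7-day sham ipsilateral libraries. The sham contralateral libraries of that time held 472, 733 and 1275, and the difference between the contralateral groups was not called. A sham contralateral library of 24 h reached 1825. Kcnq1, a Kv channel of epithelia and vessels, missed the fold limit at 24 h with 405, 452 and 507 counts in sham and 807, 689 and 532 in tMCAO libraries (log2 fold change 0.56 ± 0.14, adjusted p = 0.0069). The antisense gene Kcnq1ot1 overlaps Kcnq1 and is listed in the same table, and the strand setting of the counting is not given in the sources used here, so the level of Kcnq1 is uncertain.

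**Figure D2:**
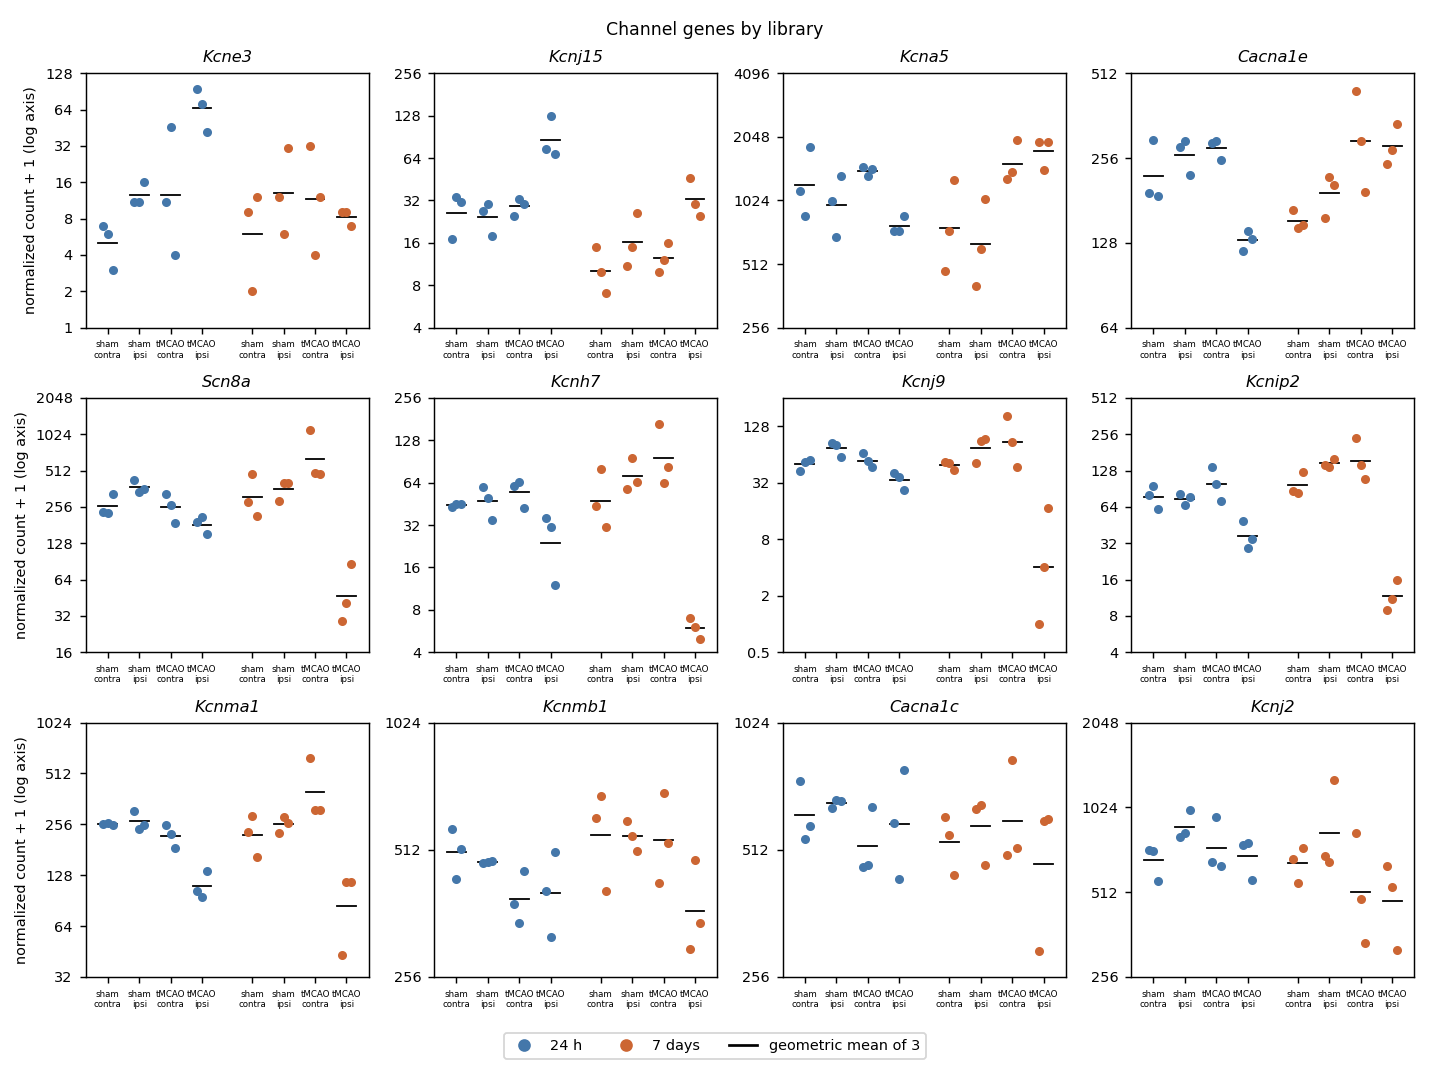
Normalized count + 1 (log axis) of 12 channel genes in every library, by group, with the geometric mean of the 3 libraries as a bar (blue 24 h, orange 7 days). Kcne3 and Kcnj15 are high in tMCAO ipsilateral libraries at 24 h, Kcna5 is high in tMCAO libraries of both hemispheres at 7 days, and Scn8a, Kcnh7, Kcnj9 and Kcnip2 are lowest in tMCAO ipsilateral libraries at 7 days.

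Among the 5 sodium channel alpha subunits, which form the pore, 3 were called lower at each time, with a median log2 fold change of -0.97 at 24 h and -1.52 at 7 days. Scn8a encodes Nav1.6, the main sodium channel of nodes of Ranvier. It was at 423, 337 and 362 counts in sham and 191, 209 and 151 in tMCAO ipsilateral libraries at 24 h, with a log2 fold change of -1.03 ± 0.36 (adjusted p = 0.037) whose call was lost in each of the 6 fits without a library. At 7 days Scn8a was at 283, 401 and 404 in sham and 28, 40 and 86 in tMCAO libraries, a decrease of 7.65-fold (log2 fold change -2.93 ± 0.36, adjusted p = 1.5e-05), called in all 6 such fits. Scn1a, the sodium channel of inhibitory interneurons, fell (log2 fold change -1.68 at 24 h and -2.94 at 7 days), and Scn2a, of axon initial segments, fell (log2 fold change -0.97 and -1.52). Scn3a, with -0.34 and -0.53, and Scn7a, with -0.44 and -0.95, did not pass the test. Of the 4 beta subunits, which anchor and tune the pore, Scn2b fell by 0.80 at both times and Scn3b fell by 0.91 at 24 h.

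Of the 8 calcium channel alpha1 subunits, the pore-forming proteins, Cacna1d, Cacna1e and Cacna1i were called lower at 24 h, and Cacna1b and Cacna1i at 7 days. The L-type Cacna1c (Cav1.2), the main calcium entry channel of arterial smooth muscle, overlapped between groups at both times, with 642, 670 and 668 counts in sham and 590, 435 and 790 in tMCAO ipsilateral libraries at 24 h. Its log2 fold change was -0.17 ± 0.26 at 24 h and -0.29 ± 0.26 at 7 days. The L-type Cacna1d (Cav1.3) had a log2 fold change of -0.90 at 24 h (adjusted p = 0.0082), called in 5 of 6 fits without a library, and of -0.04 at 7 days. The T-type Cacna1h, also found in vessel walls, was at -0.62 ± 0.25 (adjusted p = 0.066) and -0.25 ± 0.25. The T-type Cacna1i, best known from thalamic neurons, fell (log2 fold change -1.17 at 24 h and -2.59 at 7 days, with an adjusted p of 4.5e-05 for the latter). Cacna1b, the N-type channel of nerve terminals, was at 40, 55 and 58 in sham and 5, 5 and 23 in tMCAO libraries at 7 days and fell by 2.43 ± 0.43 on the log2 scale. The P/Q-type Cacna1a, likewise presynaptic, was at 224, 226 and 206 in sham and 168, 227 and 226 in tMCAO libraries at 7 days, with a log2 fold change of -0.09 ± 0.24. Cacna1e, the R-type channel, went from 279, 293 and 221 counts in sham to 119, 140 and 131 in tMCAO ipsilateral libraries at 24 h (log2 fold change -1.01 ± 0.23, adjusted p = 0.0028). At 7 days the order of the groups was the opposite, with 156, 219 and 205 in sham and 243, 272 and 336 in tMCAO libraries, but the log2 fold change of 0.55 ± 0.23 did not pass the test (adjusted p = 0.11).

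Among the auxiliary calcium channel subunits, every class held genes called lower at 7 days. All 6 gamma subunits were called lower at 7 days, and 3 of them at 24 h. Their log2 fold changes at 7 days ran from -3.04 to -1.24 with a median of -2.31. Several, Cacng2, Cacng3, Cacng4 and Cacng8 included, are better known as AMPA receptor partners. Cacng3 had the largest decrease, from 68, 76 and 98 counts in sham to 6, 7 and 16 in tMCAO libraries at 7 days. Among the 4 beta subunits, which carry the pore to the membrane, 3 were called lower at each time. Cacnb4, the beta subunit of nerve terminals, was at 116, 145 and 137 in sham and 16, 17 and 23 in tMCAO libraries at 7 days and fell by 2.78 ± 0.33 on the log2 scale (adjusted p = 1.0e-05). Cacnb3 fell (log2 fold change -0.62 at 24 h and -1.47 at 7 days). Of the 4 alpha2delta subunits, the extracellular proteins that increase channel number at the surface, Cacna2d2 fell (log2 fold change -1.12 and -1.08), Cacna2d3 fell by 2.35 at 7 days, and the more abundant Cacna2d1 was at -0.43 and -0.59 without passing the test.

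HCN channels conduct a depolarizing current on hyperpolarization and pace rhythmic cells. Of the 4 members, 2 were called lower at 24 h and all 4 at 7 days. Hcn2 was at 745, 661 and 698 in sham and 282, 347 and 348 in tMCAO ipsilateral libraries at 24 h, and at 727, 1075 and 760 against 480, 597 and 584 at 7 days, and the groups did not overlap at either time. It fell by 1.11 ± 0.19 at 24 h (adjusted p = 3.3e-04) and had a log2 fold change of -0.61 ± 0.19 at 7 days (adjusted p = 0.036), and the later call was lost without tMCAO ipsilateral 7 days replicate 1 (-0.51) or 3 (-0.65) or sham ipsilateral 7 days replicate 2 (-0.43).

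The largest class, with 31 members, was that of the Kv alpha subunits, the pores of the Kv1 to Kv12 families and their silent partners. In it 10 were called lower at 24 h and 20 at 7 days, with medians of -0.87 and -1.98 on the log2 scale. Kcnb2 encodes Kv2.2, and was at 9, 21 and 21 in sham and 0, 0 and 1 in tMCAO ipsilateral libraries at 7 days (log2 fold change -3.75 ± 0.59, adjusted p = 1.7e-04). Kcnv1, a silent subunit that assembles with Kv2 pores, was at 15, 22 and 21 in sham and 1, 1 and 0 in tMCAO libraries. Kcnh7, of the Erg family, was at 57, 95 and 64 against 6, 5 and 4, and fell by 3.58 ± 0.41 on the log2 scale (adjusted p = 7.6e-06). None of these tMCAO libraries reached a sham library. Kcnq3, a subunit of the neuronal M-current channel, fell (log2 fold change -1.55 at 24 h and -2.53 at 7 days). Kcnq5, which is found in neurons and in vascular smooth muscle, was at 43, 58 and 56 in sham and 2, 7 and 3 in tMCAO libraries at 7 days (log2 fold change -3.53 ± 0.41, adjusted p = 8.7e-06). Kcnc1 and Kcnc2, which serve fast-spiking neurons, had log2 fold changes of -1.35 and -1.17 at 24 h and -2.76 and -3.42 at 7 days, of which that of Kcnc2 at 24 h did not pass and that of Kcnc1 at 24 h was lost in each of the 6 fits without a library. Kcna2, the juxtaparanodal Kv1.2 of myelinated axons, fell (log2 fold change -1.09 and -1.68), whereas Kcna1, which forms channels with it, was low (5 to 14 counts in the ipsilateral libraries) and overlapped between groups at both times. Kcng2 was called at 24 h and not at 7 days (-2.0 ± 0.65, adjusted p = 0.025 at 24 h), and the call remained in 1 of 6 fits without a library.

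The 11 auxiliary Kv subunits held 2 called lower and 1 called higher at 24 h, and 6 called lower at 7 days. Kcnip2 encodes KChIP2, a calcium-binding subunit of the A-type Kv4 channels. It was at 81, 66 and 76 in sham and 48, 28 and 34 in tMCAO ipsilateral libraries at 24 h, and at 142, 137 and 160 against 8, 10 and 15 at 7 days. The 7-day decrease was 12.6-fold (log2 fold change -3.66 ± 0.29, adjusted p = 4.9e-07). Its channel partners Kcnd2 and Kcnd3 fell (log2 fold change -2.02 and -1.57 at 7 days), and Kcnip3 was not called at either time (-0.49 and -0.40). Of the 6 genes on the A-type list, 3 were called lower at 24 h and 5 at 7 days. Kcne4, an inhibitory subunit abundant in vessels, overlapped between groups at both times (0.38 ± 0.19 and -0.40 ± 0.19). Kcne2 is a subunit of epithelial channels known from the choroid plexus. It was at 82, 108 and 89 in sham and 5, 30 and 11 in tMCAO libraries at 7 days, and its call was kept in 1 of 6 fits without a library. Choroid plexus markers (7 genes) summed to 20086 to 35274 in sham and 3171 to 6975 in tMCAO ipsilateral libraries at 7 days, and ranged from 7259 to 97180 in the 24-h sham ipsilateral libraries. Kcnj13 (Kir7.1), itself a channel of that epithelium, moved with them, at 31, 351 and 178 counts in sham at 24 h and 119, 82 and 88 against 2, 20 and 16 at 7 days. The part of choroid plexus RNA in these values was not tested.

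**Figure D3:**
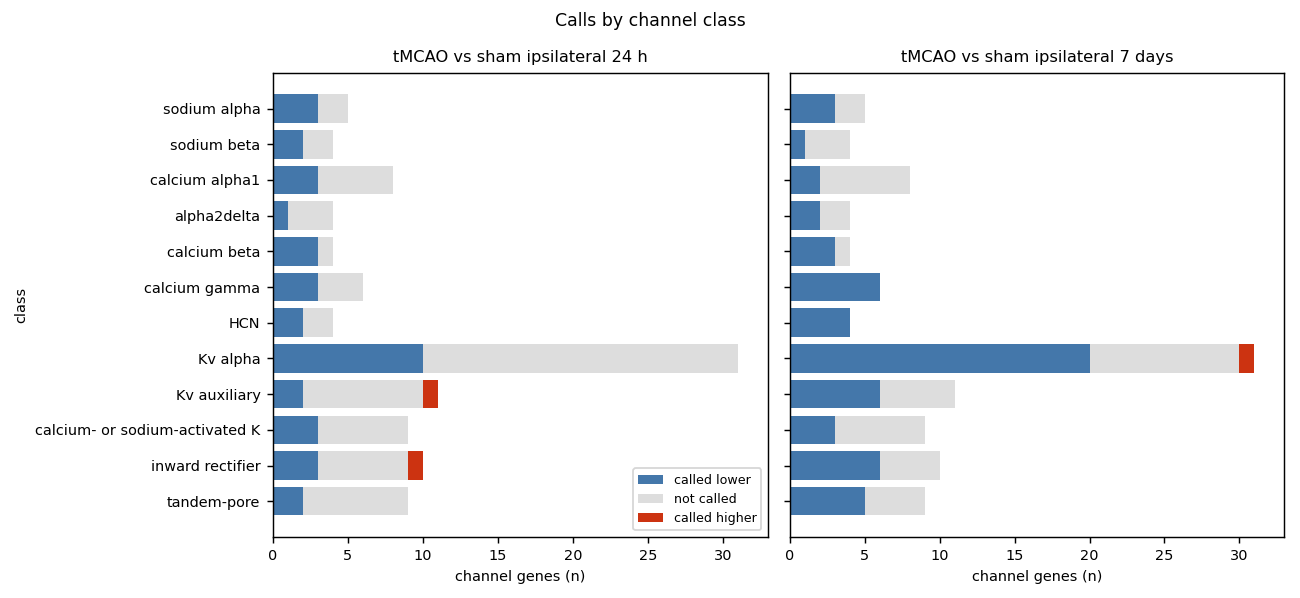
Bars give the number of channel genes in each class called lower (blue), called higher (red) or not called (grey) in tMCAO against sham ipsilateral libraries at 24 h and 7 days. All 6 gamma subunits and all 4 HCN genes are called lower at 7 days, and in the Kv alpha class 10 of 31 are called lower at 24 h and 20 of 31 at 7 days.

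Among the 9 calcium- or sodium-activated potassium channel genes, 3 were called lower at each time. Kcnma1 encodes the BK channel pore, which opposes constriction in arteries and also shapes firing in neurons. It was at 307, 240 and 254 in sham and 102, 94 and 134 in tMCAO ipsilateral libraries at 24 h, and at 225, 283 and 261 against 42, 115 and 116 at 7 days. Its log2 fold changes of -1.28 ± 0.31 and -1.62 ± 0.31 (adjusted p = 0.0049 and 0.0011) were called in all 6 fits without a library at each time. The smooth muscle BK subunit Kcnmb1 was at 599, 551 and 508 in sham and 297, 484 and 342 in tMCAO libraries at 7 days, with a log2 fold change of -0.59 ± 0.21 that did not pass the test (adjusted p = 0.062). The neuronal BK subunit Kcnmb4 fell (log2 fold change -0.78 at 24 h and -2.57 ± 0.27 at 7 days, with an adjusted p of 4.3e-06 for the latter), and the 24 h call was lost in each of the 6 fits without a library. At 7 days it went from 109, 109 and 135 counts in sham to 14, 23 and 21. Kcnn2, the small-conductance channel SK2, had the largest decrease of all members at 24 h, from 140, 132 and 142 to 30, 46 and 26 (log2 fold change -2.03 ± 0.46, adjusted p = 0.0030). The endothelial channels Kcnn3 and Kcnn4, which drive endothelium-dependent dilation, overlapped or missed the test at both times.

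In the inward rectifier class (10 members), 3 were called lower at 24 h and 6 at 7 days. Kcnj3 and Kcnj9 encode Kir3.1 and Kir3.3, potassium channels opened by G proteins in neurons, and had the largest decreases of all members at 7 days. Kcnj3 was at 66, 109 and 121 in sham and 0, 5 and 20 in tMCAO ipsilateral libraries (log2 fold change -4.27 ± 0.69, adjusted p = 2.1e-04). Kcnj9 was at 51, 88 and 93 against 0, 3 and 16 (log2 fold change -4.21 ± 0.62, adjusted p = 8.5e-05). At 24 h Kcnj3 stood at 115, 85 and 65 in sham and 41, 30 and 38 in tMCAO libraries without passing the test (adjusted p = 0.18). Kcnj4 (Kir2.3) fell (log2 fold change -1.39 and -3.15), and Kcnj16 (Kir5.1), a partner of the astrocyte channel Kir4.1, fell (log2 fold change -1.09 and -1.43). The endothelial Kcnj2 was at 689, 655 and 1277 in sham and 632, 533 and 318 in tMCAO libraries at 7 days, and its log2 fold change of -0.81 ± 0.29 did not pass (adjusted p = 0.067). Of the 9 tandem-pore channels, which conduct background potassium current, 2 were called lower at 24 h and 5 at 7 days. Kcnk2 (TREK-1), a stretch-sensitive channel of vessels, astrocytes and neurons, was at 452, 596 and 498 in sham and 219, 144 and 330 in tMCAO libraries at 24 h, and at 564, 522 and 411 against 138, 183 and 188 at 7 days. Its log2 fold changes were -1.23 ± 0.21 and -1.55 ± 0.21 (adjusted p = 3.2e-04 and 4.6e-05). Kcnk3 (TASK-1), another channel of smooth muscle, missed the fold limit at 24 h (-0.56 ± 0.21) and overlapped at 7 days (-0.22 ± 0.21). In 11 members at least 1 tMCAO ipsilateral library of 7 days was at 0, and no sham ipsilateral library was at 0 for any member. The limit on the mean leaves out genes at 0 in most libraries, and such values were not counted over all genes tested.

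Grouped by the cells in which they are best known, the members gave the following counts. Of all genes tested, 8.23% were called lower and 10.0% higher at 24 h, and 9.95% and 3.27% at 7 days. With so few genes per list, a low count does not set a list apart from these shares. Of 10 smooth muscle and pericyte channels, 2 (Kcnma1 and Kcnj12) were called lower at 24 h, and 2 (Kcnma1 and Kcnq5) lower and 1 (Kcna5) higher at 7 days, with median log2 fold changes of -0.45 and -0.39. Mural cell markers summed to 142108 to 167466 in sham and 79471 to 141907 in tMCAO ipsilateral libraries at 24 h, and to 167810 to 174119 against 99210 to 131677 at 7 days, and their part in these values was not tested. None of the 3 endothelial channels (Kcnj2, Kcnn3 and Kcnn4) was called by limma at either time. Of 4 immune cell and microglia channels measured, Kcnab2 fell by 1.93 at 7 days. Kcnab2 is an auxiliary subunit that neurons also express. Kcnk6, another gene on that list, was at 215, 231 and 208 in sham and 255, 254 and 251 in tMCAO libraries at 24 h, all above sham, but its log2 fold change of 0.22 ± 0.13 did not pass. The 3 glial channels (Kcnj16, Kcnk1 and Kcnk2) were all called lower at 7 days and 2 of them at 24 h. Astrocyte markers summed to 17188 to 26159 in sham and 11257 to 17528 in tMCAO ipsilateral libraries at 24 h, with 4 of 8 called lower. At 7 days the sums were 15637 to 32813 against 10303 to 13939, with 2 of 8 called lower. The part of astrocyte RNA in the glial channel values was not tested. Of 7 axonal and nodal channels, 5 were called lower at 24 h and 6 at 7 days (medians -1.03 and -2.47), with Kcna1 called at neither time. Presynaptic calcium channels were called lower in 1 of 5 at 24 h and 3 of 5 at 7 days.

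The summed counts of the axonal and nodal channels were 1580 to 1964 in sham and 701 to 963 in tMCAO ipsilateral libraries at 24 h, and 1249 to 1971 against 292 to 516 at 7 days, and in both cases the groups did not overlap. The smooth muscle and pericyte channels summed to 4547 to 5410 against 3139 to 5213 at 24 h and to 4177 to 4458 against 3896 to 5094 at 7 days, and the groups overlapped. A list of 24 partner genes that are no members was lower as well. It holds mostly genes of proteins that assemble with channels, and also the channel genes Kcnj8, Kcnj10 and Nalcn. Of these 24 genes, 11 were called lower at 24 h and 19 at 7 days, beside 8.23% and 9.95% of all genes tested. At either time 0 were called higher, beside 10.0% and 3.27% of all genes tested. Ank3, which encodes the ankyrin that holds sodium and Kcnq channels at the axon initial segment, fell (log2 fold change -1.24 and -1.99), and Dpp10, a subunit of Kv4 channels, fell (-1.19 and -2.53). Unc80, part of the sodium leak channel complex, fell (log2 fold change -1.39 and -2.89), and Abcc9, the mural cell partner of Kir6.1, was at -0.36 and -0.54 without a call.

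**Figure D4:**
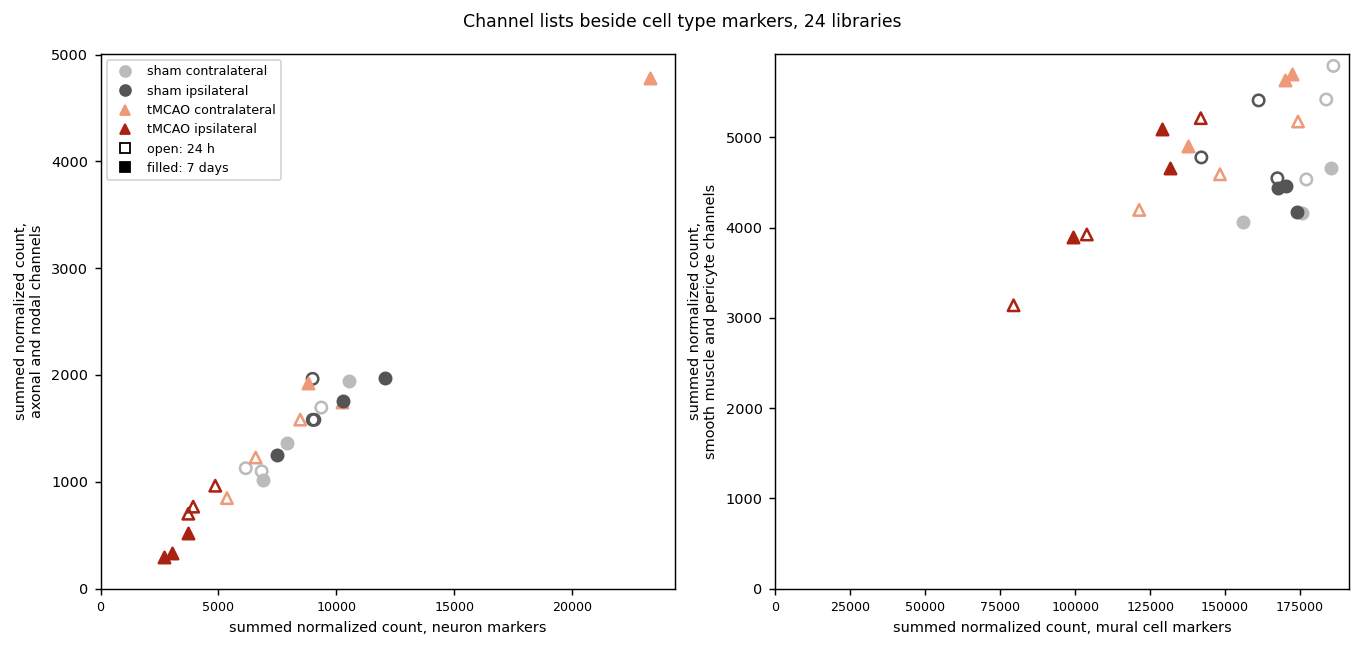
Each point is a library, with summed normalized counts of neuron markers against axonal and nodal channels (left) and of mural cell markers against smooth muscle and pericyte channels (right). Open symbols are 24 h and filled symbols 7 days, circles sham and triangles tMCAO. The tMCAO ipsilateral libraries of 7 days are lowest on both axes at left, with channel sums of 292 to 516, and tMCAO contralateral 7 days replicate 1 is highest.

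The difference between the stroke effects at 24 h and 7 days was tested as an interaction, in which each effect used the sham ipsilateral libraries of its own time. The effect was more negative at 7 days in 77 of 105 members, and 17 members were called lower and 2 higher in this test, beside 5.68% and 2.43% of all genes tested. Kcnip2 had the smallest adjusted p, with an interaction of -2.63 ± 0.41 on the log2 scale (adjusted p = 5.0e-04). Its sham ipsilateral libraries were higher at 7 days than at 24 h by 0.97 on the log2 scale, and this difference enters the interaction. Among the genes called, Kcnj9 (-3.11) and Kcnv1 (-2.83) had larger interactions, and Kcnh7 (-2.59), Kcnq5 (-2.54), Kcnh4 (-2.47) and Cacng5 (-2.44) came next after Kcnip2 in size. Kcnf1 and Kcnh4, both Kv alpha genes, were near 0 or above at 24 h (0.10 and 0.48) and fell at 7 days (-2.27 and -1.99). The members called in the other direction were Kcna5 (1.80 ± 0.48, adjusted p = 0.023) and Cacna1e (1.56 ± 0.32, adjusted p = 0.0048). In the sham ipsilateral libraries both genes were lower on average at 7 days than at 24 h, and this difference also enters their interactions. The interaction of Cacna1e was called in all 12 fits that left out a library, as were those of Cacng5, Kcnh7, Kcnip2, Kcnmb4, Kcnq5 and Kcnv1, whereas that of Kcna5 was called in 6 of 12. Those of Kcnj9, Kcnh4 and Kcnf1 were called in 5 of 12. The number called lower became 7 without sham ipsilateral 7 days replicate 3 and likewise without tMCAO ipsilateral 24 h replicate 1 or 2. It was 8, 10 and 11 without sham ipsilateral 24 h replicates 3, 1 and 2, and 11 and 10 without tMCAO ipsilateral 7 days replicates 1 and 2. Over all genes tested, the number called lower was 908 with all libraries and 579 to 978 in these fits. Between the sham ipsilateral libraries of 7 days and 24 h no member was called in limma (0.476% of all genes tested were, and 6 members had an unadjusted p under 0.05). Of the 15982 genes tested, 2258 had such a p.

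**Figure D5:**
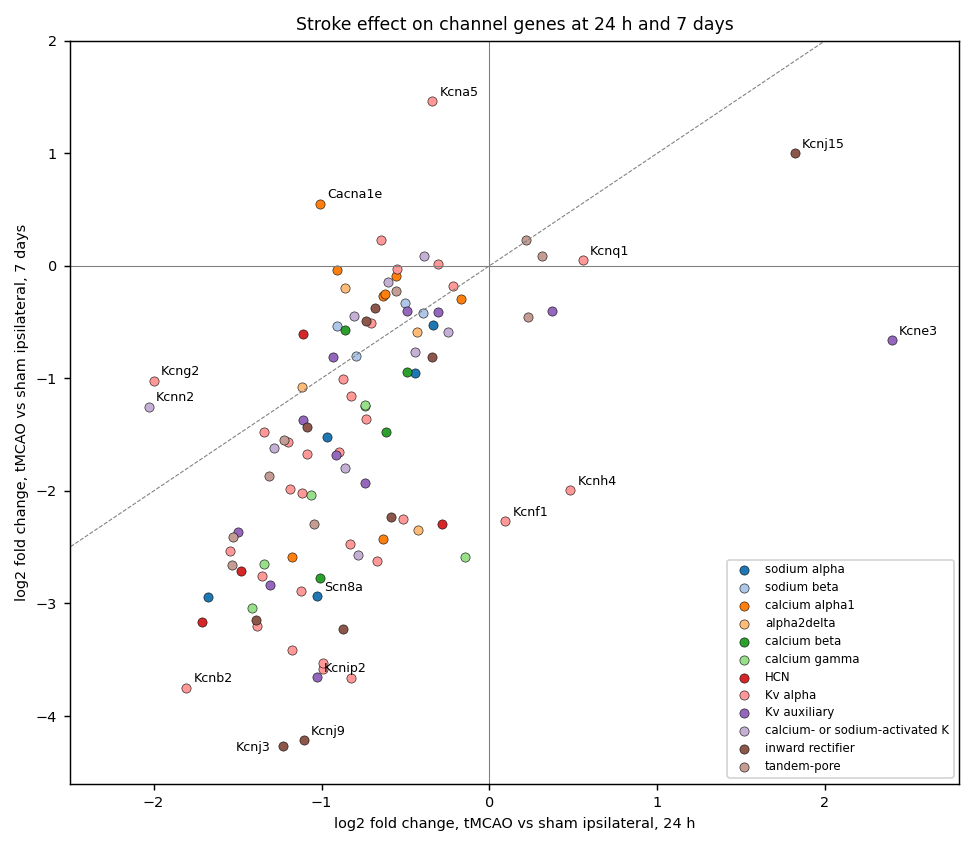
Log2 fold change of each channel gene, tMCAO against sham ipsilateral, at 24 h (x axis) and at 7 days (y axis), coloured by class, with the diagonal dashed. Of 105 genes, 91 are negative at both times and 77 lie below the diagonal, and Kcna5 is called higher at 7 days.

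The contralateral hemisphere served as a further control, taken from animals of the same operation. At 24 h, 15 members were called lower and 4 higher in ipsilateral than in contralateral tMCAO libraries, beside 5.14% and 8.51% of all genes tested. The genes called higher were Kcne3 (2.38 ± 0.83), Kcnj15 (1.56 ± 0.37), Kcnk5 (1.35 ± 0.48) and Kcnq1 (0.77 ± 0.14, uncertain as above). The count of 15 became 6 without tMCAO contralateral 24 h replicate 1, 7 without tMCAO ipsilateral 24 h replicate 1 and 9 without tMCAO ipsilateral 24 h replicate 2. Over all genes tested, 821 were called lower with all libraries, and 653, 535 and 582 in these fits. At 7 days, 66 members were called lower and 1 higher (Kcnj15), beside 9.98% and 3.03% of all genes tested. Without the library that stands apart, tMCAO contralateral 7 days replicate 1, 58 were called lower and Kcnj15 was no longer called, with a log2 fold change of 1.23 against 1.39. Over all genes tested, the number called lower fell from 1595 to 1152 without that library. Both this contrast and that with sham use the same tMCAO ipsilateral libraries: 14 members at 24 h and 58 at 7 days were called lower in both.

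In the comparisons without injured tissue no channel gene was called when all libraries were used. Between the sham hemispheres no member was called in limma at 24 h or 7 days (0% of all genes tested at either time), while 5 and 7 members had an unadjusted p under 0.05. Over the 15982 genes tested, 367 and 359 had such a p. The channel genes were nevertheless placed to the ipsilateral side, with positive log2 differences in 82 members at 24 h and 95 at 7 days and medians of 0.33 and 0.32, where the medians over all genes were -0.014 and -0.0017. Neuron markers summed to 6158 to 9365 in sham contralateral libraries at 24 h, beside 8994 to 9069 ipsilaterally, and to 6896 to 10521 beside 7468 to 12068 at 7 days. Between tMCAO and sham contralateral libraries, no member was called in limma at 24 h (0% of all genes tested, 2 members with an unadjusted p under 0.05) or at 7 days (0.0313% of all genes tested, 32 members with an unadjusted p under 0.05). Of the 15982 genes tested, 405 at 24 h and 1639 at 7 days had an unadjusted p under 0.05. The median log2 fold change of the members at 7 days was 0.66 and 94 of 105 were positive. This median was 0.27 without tMCAO contralateral 7 days replicate 1, and 1 member was called higher without replicate 3 of that group.

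Promoter sequences in RefSeq for the mouse build GRCm38.p6, from 250 bases before to 50 bases after each annotated start, were found for 75 of the 105 members in 110 windows. Short motifs were searched on both strands. The Sp1 box GGGCGG was in a window of 48 of the 75 members (64.0%) and in 38.2% of all 27025 genes of that table, or in 46.4% of the members' windows and 35.7% of all windows, since members had more windows each. The TATA box TATAAA was in 7 members (9.33%) and 15.7% of all genes. Neither the cAMP response element TGACGTCA nor TTCAGCACC, the left arm of the RE1 element bound by the neuronal repressor REST, was in any member's window (2.03% and 0.433% of all genes). None of these motifs contains another. The 250 bases before the start are given for Kcna5 and Kcnj15, which rose, and for Kcnj9 and Kcnip2, which fell at 7 days, as examples whose calls remained in all 6 fits without a library, written along the strand of the gene with motif matches in capitals. A match is a string of letters in this window and not evidence of binding.
Kcna5 (chr6:126535556-126535805, minus strand, no match): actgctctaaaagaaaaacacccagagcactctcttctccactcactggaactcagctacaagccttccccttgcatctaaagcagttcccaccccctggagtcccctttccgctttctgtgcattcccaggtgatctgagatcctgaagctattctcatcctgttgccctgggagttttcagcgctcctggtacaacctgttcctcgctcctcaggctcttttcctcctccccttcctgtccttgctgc
Kcnj15 (chr16:95257308-95257557, plus strand, no match): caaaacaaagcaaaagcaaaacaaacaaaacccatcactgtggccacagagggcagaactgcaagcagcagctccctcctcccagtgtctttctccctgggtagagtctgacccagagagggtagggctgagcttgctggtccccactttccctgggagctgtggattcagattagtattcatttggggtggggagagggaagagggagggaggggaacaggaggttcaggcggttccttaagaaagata
Kcnj9 (chr1:172329323-172329572, minus strand, a TATA box in capitals): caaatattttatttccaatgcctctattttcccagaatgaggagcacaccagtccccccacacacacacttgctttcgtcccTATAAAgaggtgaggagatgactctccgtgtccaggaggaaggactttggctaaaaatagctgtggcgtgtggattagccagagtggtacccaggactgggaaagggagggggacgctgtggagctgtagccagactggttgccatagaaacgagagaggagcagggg
Kcnip2 (chr19:45816064-45816313, minus strand, Sp1 boxes in capitals): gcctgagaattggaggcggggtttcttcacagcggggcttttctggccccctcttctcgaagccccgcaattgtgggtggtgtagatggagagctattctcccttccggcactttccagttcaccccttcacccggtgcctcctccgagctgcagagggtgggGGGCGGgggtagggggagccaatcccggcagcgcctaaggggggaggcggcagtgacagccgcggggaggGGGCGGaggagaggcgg
The TATA box of Kcnj9 starts at base 83 of the run, and the Sp1 boxes of Kcnip2 start at bases 164 and 234. Kcnj15 also counts among the 7 members with a TATA box, but no whole match lies in the 250 bases given for it.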

How the data were processed

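RNA from brain microvessels was sequenced from poly(A)-selected stranded libraries. The authors deposited normalized read counts per gene, scaled by DESeq2 and rounded to whole numbers, which is a score here and not a raw count, so no count model was applied and sequencing depth is unknown. The submitters' processing notes name STAR 2.5.2b, featureCounts 1.5.1 and the builds mm10 and GRCm38. By the study's methods, some libraries were set aside as outliers and 3 per group were analysed. The strand setting of the counting is not given in the sources used here.

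Groups were taken from the sample titles. Values were compared with limma 3.58.1 in R 4.3.3 (a linear model across all genes with a mean-variance trend) on log2(normalized count + 1). All 8 groups entered a single fit, and p-values were adjusted (Benjamini-Hochberg) over the 15982 genes with a mean above 5. A gene was called at an adjusted p under 0.05 and a change of more than 1.5-fold. Fold changes are on this log2 scale. Exon lengths came from GENCODE M21 for GRCm38. Every library is a separate pool of hemispheres, and the sources do not say whether same-numbered libraries of the 2 hemispheres come from the same mice.

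Same-numbered sham hemispheres deviated together from their group means over all genes, with correlations of 0.323, 0.410 and 0.145 at 24 h and 0.325, 0.442 and 0.467 at 7 days, so the pairing was taken to hold there, from the data and not from the labels. With the number as a block, 0 members were called between sham hemispheres, as without it.

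The members and lists were chosen with earlier results of these data known. Members named singly were those called higher, the largest non-overlapping decreases and the most abundant gene per class, those called in the interaction, and the listed cell type channels (71 genes, of which a few are not reported here). Others (Kcnj13, Kcnq1, Kcnk5 and single class members) were named after their values were seen. Alternatives were another pseudocount (0.5), no filter and a minimum mean of 20, median centring, a replicate block, only the compared groups, no fold limit, a correction for exon length by a spline, and leaving out each library. The scripts were tested on simulated data. Python 3.11.15 was used for summaries.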

Additional observations from a re-analysis of the deposited data

Results flagged for a closer look

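The stroke effect differed between 24 h and 7 days by the interaction test in limma for 19 channel genes. It was higher at 7 days for Kcna5 by 1.80 and for Cacna1e by 1.56 on the log2 scale. It was more negative at 7 days for 17 genes. Among Kv alpha genes reported singly the differences were -2.83 for Kcnv1, -2.59 for Kcnh7, -2.54 for Kcnq5, -2.47 for Kcnh4, -2.36 for Kcnf1, -1.96 for Kcns1, -1.77 for Kcnh3 and -1.73 for Kcnh1. Among the other potassium channel genes they were -3.11 for Kcnj9, -2.63 for Kcnip2, -1.79 for Kcnmb4 and -1.76 for Kcnj4. Among calcium and sodium channel genes they were -2.44 for Cacng5, -1.92 for Cacna2d3, -1.77 for Cacnb4 and -1.91 for Scn8a. The calls of 7 of the 19 remained in every fit without a library, namely those of Cacna1e, Cacng5, Kcnh7, Kcnip2, Kcnmb4, Kcnq5 and Kcnv1. Those of Kcnh3 and Kcnj4 remained in 1 of 12 fits, that of Kcnh1 in 3 and that of Kcns1 in 4. The calls of Cacna2d3, Kcnf1, Kcnh4 and Kcnj9 remained in 5. Groups of 3 libraries were too small to test for a single outlying library.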

How the results depend on the processing

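Leaving out each library in turn gave 19 to 34 members called lower and 1 to 3 called higher for tMCAO against sham ipsilateral at 24 h, where 37 and 2 were called with all libraries. At 7 days the ranges were 51 to 62 lower and 1 to 2 higher. Over all genes tested, the number called lower varied too, from 833 to 1403 at 24 h and from 1131 to 1570 at 7 days. For ipsilateral against contralateral tMCAO the ranges over the members were 6 to 18 lower and 2 to 3 higher at 24 h. At 7 days they were 58 to 70 lower and 0 to 2 higher. Over all genes tested, 535 to 1052 were called lower at 24 h and 1152 to 1691 at 7 days in those fits. For the difference between the times, 7 to 19 members were called lower and 1 to 3 higher, and 579 to 998 of all genes tested were called lower. For tMCAO against sham contralateral at 7 days 0 to 1 members were called higher, with 1 called without tMCAO contralateral 7 days replicate 3. With a minimum mean of 20, the number called higher at 24 h was 1 against sham and 2 against the contralateral side, since fewer genes were tested. With the length correction it was 1 and 2, and 2 at 7 days against sham. Against the contralateral side at 7 days, 2 were called higher with median centring and 2 with no fold limit, and 0 with only the compared groups. The number called lower at 24 h against sham (37) was 28 with the length correction, 49 with median centring and 52 with only the compared groups, and 54 with only the compared groups at 7 days (61). Over all genes tested it went from 1316 to 1128, 1707 and 1429 at 24 h, and from 1591 to 1269 at 7 days. Against the contralateral side at 7 days, 48 were called lower with only the compared groups (66), and over all genes tested 897 (1595). The cause of these shifts was not tested. Of the single-gene results, 1267 of 1488 under all alternatives stayed called in the same direction, 221 were no longer called and 0 reversed. The total includes the setting with no fold limit, in which a called gene stays called by construction. That setting gave 34 results at 24 h, 46 at 7 days and 19 in the difference between the times.

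With the replicate number as a block, 34 members were called lower and 2 higher at 24 h against sham, 60 and 1 at 7 days, and 13 and 2 in the difference between the times. Over all genes tested, 1235, 1560 and 890 were called lower, beside 1316, 1591 and 908 without the block. With the mouse pool as a block, 20 members were lower and 3 higher between tMCAO hemispheres at 24 h and 66 and 1 at 7 days. Over all genes tested, 1113 and 1768 were lower, beside 821 and 1595 without that block. Same-numbered tMCAO hemispheres correlated by 0.0658, 0.360 and 0.327 at 24 h and 0.0593, 0.309 and 0.0640 at 7 days, and each sample correlated best with its own number, which is a hint from the data. Low genes limit the precision: 11 members had a tMCAO ipsilateral library of 7 days at 0, and the deposited values keep no depth.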

Other observations

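The channels left out of the selection and the genes of proteins that bind channels, all from the list of 24 above, can be set beside the members. Kcnj8, the Kir6.1 subunit of pericytes, had a log2 fold change of 0.10 ± 0.40 at 24 h and -0.47 ± 0.40 at 7 days (SE) and was not called. Kcnj10, the Kir4.1 channel of astrocyte endfeet, was at -0.62 ± 0.32 at 24 h and fell by 1.02 ± 0.32 at 7 days (adjusted p = 0.032 in limma). Among proteins of the node of Ranvier, Cntnap2, which clusters Kv1 channels beside the node, fell (log2 fold change -1.29 and -2.26), and Nfasc fell by 1.5 at 7 days. Of the fibroblast growth factor homologues that bind sodium channels, Fgf12 fell (log2 fold change -1.05 and -1.22) and Fgf13 fell (-1.07 and -1.19). Stac2 and Unc79 were at -0.44 and -0.70 at 24 h and fell (log2 fold change -2.22 and -3.12 at 7 days), and both were called in the difference between the times.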
